A study of Homo sapiens with 5 samples.

Results

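RUNX1, RUNX2 and RUNX3 encode the DNA-binding subunits of core binding factor, and CBFB encodes CBFβ, the subunit that does not bind DNA itself. The Runt domain of each RUNX protein contacts DNA, and CBFβ pairs with this domain and stabilizes the contact. RUNX1 is known as a regulator of blood stem cells, RUNX2 as a regulator of bone formation and RUNX3 as a regulator of lymphocytes and sensory neurons, and RUNX1 and RUNX2 are also studied in mammary epithelium. Each RUNX gene has a distal promoter, P1, and a proximal promoter, P2, whose transcripts encode proteins with different N-termini.

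These 4 genes, out of 20033 protein-coding genes of GENCODE release 44, were examined in a list of open chromatin regions from MCF10A cells. MCF10A is an immortalized, non-tumorigenic line of human mammary epithelial cells. ATAC-seq, in which the Tn5 transposase inserts adapters into accessible DNA, was performed on 5 libraries with paired reads of 75 bases. The cells, at a passage number under 30, received no treatment. Their medium held 5% horse serum, 10 µg/ml of insulin, 100 ng/ml of cholera toxin, 0.5 µg/ml of hydrocortisone and the growth factor EGF (20 ng/ml). There was 1 cell line and no second group, and the authors pooled the 5 libraries before they called hotspots, so no value below has a replicate error and no test was possible.

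A hotspot is a region of local read enrichment, and its score is the number that the authors' run of the Hotspot program gave it. The 181723 hotspots had scores between 4.36 and 912 with a median of 5.81. Hotspots were taken for a gene by 3 rules: within 1000 bp of any transcription start site (TSS) of the gene (a promoter hotspot), inside the gene, or with a TSS of the gene as the nearest protein-coding TSS within 100 kb (an assigned hotspot). These rules gave 7 promoter, 95 inside and 92 assigned hotspots, or 121 different hotspots in all. The median score was 6.20 for the 74 hotspots of RUNX1, 7.49 for the 14 of RUNX2, 5.24 for the 28 of RUNX3 and 14.3 for the 5 of CBFB. Of the 121 hotspots, 20.7% had a score of 10 or more, against 20.1% of all hotspots.

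The cell type label was set against marker genes, and 3 markers that define mammary layers, the basal keratin gene KRT14, the basal factor TP63 and the luminal keratin gene KRT19, had no promoter hotspot. Of 12 basal mammary genes, 10 had one (83.3%, against 77.2% of all protein-coding genes), with a median highest score of 26.7 against 20.4 over all genes with one. Of 8 luminal genes, 7 had one (87.5%, against 77.2%), with a median of 18.4 against 20.4. Both shares lay near that of all genes. Among blood markers, the scores were 4.79 at SPI1 and 5.40 at GATA1, and no promoter hotspot was found at PTPRC, CD3E or CD34. Of 4 bone markers, BGLAP alone had one, with a score of 5.26.

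The sequences of the start sites are shown because they differ between P1 and P2 and because the 3 P1 starts share a stretch of bases. The RefSeq promoter table (GRCh38.p14) holds 300 bases, from 250 before to 50 after the start, for 5 of the starts, which belong to 3 of the 4 genes. RUNX1 P1 and CBFB were not among them. The RefSeq start of RUNX2 P2 is 210 bp upstream of the first start classed as P2 here by its protein, which lies 161 bp beyond the end of the window. The other 4 RefSeq starts are at most 13 bp from the classed start. Each is written 5′ to 3′ on the strand of the gene. Capitals mark exact matches, on either strand, to the RUNX words (TGTGGTT or TGTGGTC, as well as the forms TGCGGTT or TGCGGTC), the AP-1 word TGACTCA, the ETS word CCGGAAG, the TEAD words ACATTCC and GCATTCC, the SP/KLF word GGGGCGG, the GATA word AGATAAG and an exact core word of the CTCF motif. In the sequences printed here, 0 matches of different motifs overlapped.
RUNX2 P1, chr6:45328080-45328379, plus strand: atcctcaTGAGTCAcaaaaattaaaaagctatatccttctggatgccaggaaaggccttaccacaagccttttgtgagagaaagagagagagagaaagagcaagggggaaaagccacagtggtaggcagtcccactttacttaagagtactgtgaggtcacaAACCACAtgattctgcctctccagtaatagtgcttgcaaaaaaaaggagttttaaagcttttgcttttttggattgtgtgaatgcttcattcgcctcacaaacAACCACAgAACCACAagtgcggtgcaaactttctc
RUNX3 P1, chr1:24964961-24965260, minus strand: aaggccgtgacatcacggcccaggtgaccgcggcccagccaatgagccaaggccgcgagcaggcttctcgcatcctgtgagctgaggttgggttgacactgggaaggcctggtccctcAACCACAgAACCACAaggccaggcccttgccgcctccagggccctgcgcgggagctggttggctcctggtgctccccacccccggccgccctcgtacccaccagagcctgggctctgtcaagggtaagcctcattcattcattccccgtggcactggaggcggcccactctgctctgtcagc
RUNX1 P2, chr21:34888650-34888949, minus strand: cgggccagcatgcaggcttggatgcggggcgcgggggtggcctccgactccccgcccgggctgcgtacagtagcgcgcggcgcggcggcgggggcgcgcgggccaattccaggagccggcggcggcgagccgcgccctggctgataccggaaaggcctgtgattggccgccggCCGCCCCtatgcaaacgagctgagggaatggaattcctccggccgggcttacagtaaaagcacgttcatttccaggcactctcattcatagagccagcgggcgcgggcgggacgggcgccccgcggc
RUNX2 P2, chr6:45422025-45422324, plus strand: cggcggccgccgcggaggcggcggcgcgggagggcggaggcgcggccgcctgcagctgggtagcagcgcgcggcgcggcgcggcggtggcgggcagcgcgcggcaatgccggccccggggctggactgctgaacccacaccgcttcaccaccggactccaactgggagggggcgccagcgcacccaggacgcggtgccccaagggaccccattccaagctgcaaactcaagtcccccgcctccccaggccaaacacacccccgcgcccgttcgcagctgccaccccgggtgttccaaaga
RUNX3 P2, chr1:24930227-24930526, minus strand: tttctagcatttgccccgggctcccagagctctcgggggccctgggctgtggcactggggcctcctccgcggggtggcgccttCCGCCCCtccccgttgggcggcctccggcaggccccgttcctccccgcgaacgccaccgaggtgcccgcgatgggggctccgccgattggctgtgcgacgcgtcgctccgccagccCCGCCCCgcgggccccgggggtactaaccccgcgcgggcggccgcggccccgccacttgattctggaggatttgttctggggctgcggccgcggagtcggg

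The P1 windows carried RUNX words and the P2 windows, as RefSeq places them, did not. The hotspots at P2 are wider than these windows or lie beside them: the P2 hotspot of RUNX1 held 3 RUNX words, and the hotspot just downstream of the classed P2 starts of RUNX2 held 1 RUNX word and 4 SP/KLF words. RUNX2 P1 had 3 RUNX words and 1 AP-1 word, and RUNX3 P1 had 2 RUNX words. Of 35116 RefSeq start windows of this length, 11.2% held at least 1 RUNX word, 0.712% held at least 2 and 0.0313% held at least 3. RUNX1 P2 held 1 SP/KLF word, RUNX3 P2 held 2, and RUNX2 P2 held no match to any of the 7 motifs. SP/KLF words were found in 30.8% of the start windows and AP-1 words in 4.95%. The windows also differed in base composition. The P1 windows were 42.7% G and C in RUNX2 and 66.3% in RUNX3, and the P2 windows were 72.0%, 76.0% and 76.0% in RUNX1, RUNX2 and RUNX3.

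In both P1 windows, the word AACCACA, which is TGTGGTT on the other strand, stood as a pair with 1 base between its copies. The same pair lay 70 bp downstream of the first start of the main P1 group of RUNX1, inside the hotspot that covers this start. It is shown here with 7 bases on either side, on the strand of the gene.
RUNX1 P1, chr21:35049260-35049288, minus strand: cataaacAACCACAgAACCACAagttggg
The pair was looked for after it had been seen in these windows. It occurred 185 times in the genome, on either strand, and 8 of these copies lay within 1000 bp of a TSS of a protein-coding gene. RUNX1, RUNX2 and RUNX3 were among the 8 genes with such a copy. In RUNX2 the middle of the pair was 35 bp downstream of the first P1 start, and in RUNX3 it was 125 bp upstream of it. The longest stretch that the 3 genes shared around the pair had 18 bases.
Shared stretch, RUNX1, RUNX2 and RUNX3: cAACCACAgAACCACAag
It had 3 copies in the genome, which are the 3 at P1. The stretch was defined by being shared among the 3 genes, so this count is no measure of rarity. Only the copy in RUNX1 was inside a hotspot in MCF10A cells. Over the whole list, 4 of 181723 hotspots held the pair.

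Among the start sites, a hotspot lay within 1000 bp of the P2 starts of RUNX1 and RUNX2 and of the coding starts of CBFB. The main P1 starts of RUNX1 also had hotspots within 1000 bp, with a lower highest score than RUNX1 P2. No hotspot lay within 1000 bp of RUNX2 P1, RUNX3 P1 or RUNX3 P2. The classed P2 starts of RUNX2 were not covered by a hotspot and lay 132 and 40 bp from the nearest. Transcripts were classed by their protein: P1 transcripts open with methionine and alanine, and P2 transcripts with methionine and arginine. RUNX1, RUNX2 and CBFB had a promoter hotspot and RUNX3 had none, while 77.2% of all protein-coding genes had one. A promoter score of 10 or more was found for RUNX1 and CBFB, as for 59.1% of all protein-coding genes. Over single start sites, 57.5% of the 146431 had a hotspot within 1000 bp.

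**Figure D1:**
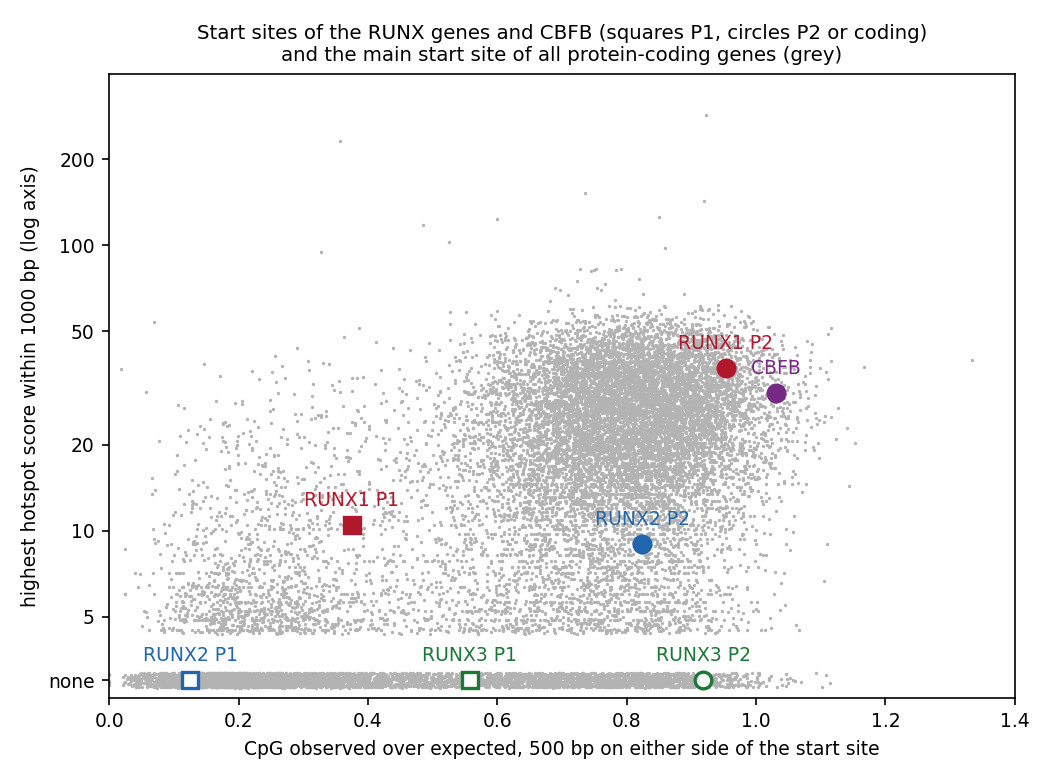
Highest hotspot score within 1000 bp (vertical, log axis) against CpG observed over expected (horizontal) for each P1, P2 or coding start of the 4 genes (coloured) and the main start site of every protein-coding gene (grey). RUNX1 P2 (37.2) and CBFB (30.4) sit among the high CpG-rich starts, RUNX2 P2 (9.0) lies lower at a similar CpG value, and RUNX2 P1, RUNX3 P1 and RUNX3 P2 have no hotspot.

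RUNX1 P2 had the strongest hotspot of the 4 genes. It covered chr21:34887856-34890328 and the P2 start at 34888690, with a score of 37.2 and a width of 2473 bp. Its width was at percentile 99 and its score at percentile 93.3 of the 24700 promoter hotspots of protein-coding genes, whose medians were 550 bp and 9.37. It also covered the start of the 1 coding transcript of RUNX1 that was neither P1 nor P2. RUNX1, counted by its highest promoter score, stood at percentile 89.9 of all protein-coding genes.

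RUNX1 P1 was covered by a hotspot at chr21:35048895-35049431 with a score of 6.03 and a width of 537 bp. A second hotspot at chr21:35048006-35048628, in the intron downstream of this start, had a score of 10.5. Another at chr21:35051297-35051845, 1953 bp upstream of the start, had a score of 18.0 and fell outside the 1000 bp window. With a window of 500 bp the highest score at P1 was 6.03, and with 2000 bp it was 18.0, against 37.2 at P2 in either case. The order of the P1 and P2 scores of RUNX1 was the same in the 3 windows.

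RUNX2, whose P1 transcripts encode the protein known from bone cells, had no hotspot at any of its 4 P1 start sites. The nearest hotspot lay 21054 bp upstream of the first of these, with a score of 4.55. At P2, hotspots at chr6:45422004-45422327 and chr6:45422617-45423339 flanked the coding starts, and both had a score of 9.0. Scores repeat in the list, and 819 hotspots had this value. The 2 hotspots were 324 and 723 bp wide, and the RefSeq window, which ends upstream of both classed P2 starts, lay wholly inside the first. RUNX2 stood at percentile 39.0 of protein-coding genes by its highest promoter score.

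RUNX3, for which both promoters are annotated 34.7 kb apart, had 0 hotspots within 1000 bp of its 4 start sites. The nearest hotspot was 17038 bp from P1, with a score of 5.09, and 6610 bp from P2, with a score of 4.47. Windows of 500 and 2000 bp also gave 0. The P2 start of RUNX3 had a CpG observed over expected value of 0.919, at percentile 90.6 of 19016 main start sites. Of the main start sites with a value of 0.7 or more, 89.5% had a hotspot within 1000 bp. RUNX3 P2 was among the CpG-rich starts without one. CpG methylation was not measured in this list.

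CBFB had a hotspot over its coding starts at chr16:67028652-67029537, with a score of 30.4 and a width of 886 bp. A second promoter hotspot at chr16:67029882-67030046, over a coding exon, had a score of 5.24 and was 165 bp wide. CBFB stood at percentile 80.2 of protein-coding genes by its highest promoter score. Its CpG observed over expected value of 1.03 was at percentile 99.1 of the main start sites.

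The starts with a hotspot within 1000 bp were not all CpG-rich. The values were 0.375 at RUNX1 P1, 0.125 at RUNX2 P1 and 0.557 at RUNX3 P1, and at P2 they were 0.953 in RUNX1, 0.824 in RUNX2 and 0.919 in RUNX3. Each P1 value lay below the median of 0.730 over the main start sites and each P2 value above it. Of the main start sites with a value under 0.4, the range that holds RUNX1 P1 and RUNX2 P1, 29.6% had a hotspot, with a median highest score of 6.36. Of those between 0.4 and 0.7, the range of RUNX3 P1, 69.8% had one.

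The P1 and P2 starts are 161 kb apart in RUNX1 and 94.2 kb apart in RUNX2, and the higher score in RUNX1, and the only hotspots at a coding start in RUNX2, were at the proximal start. Over the 1361 protein-coding genes with RefSeq start windows at least 10 kb apart, the most downstream start had the higher score in 26.2% and the most upstream start in 56.3%. These starts were taken by position and not classed by protein, so the comparison is a loose one. RUNX1 is not among the 1361 genes, because the RefSeq table holds only its P2 start. Neither start had a hotspot in 17.6% of these genes, as in RUNX3.

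**Figure D2:**
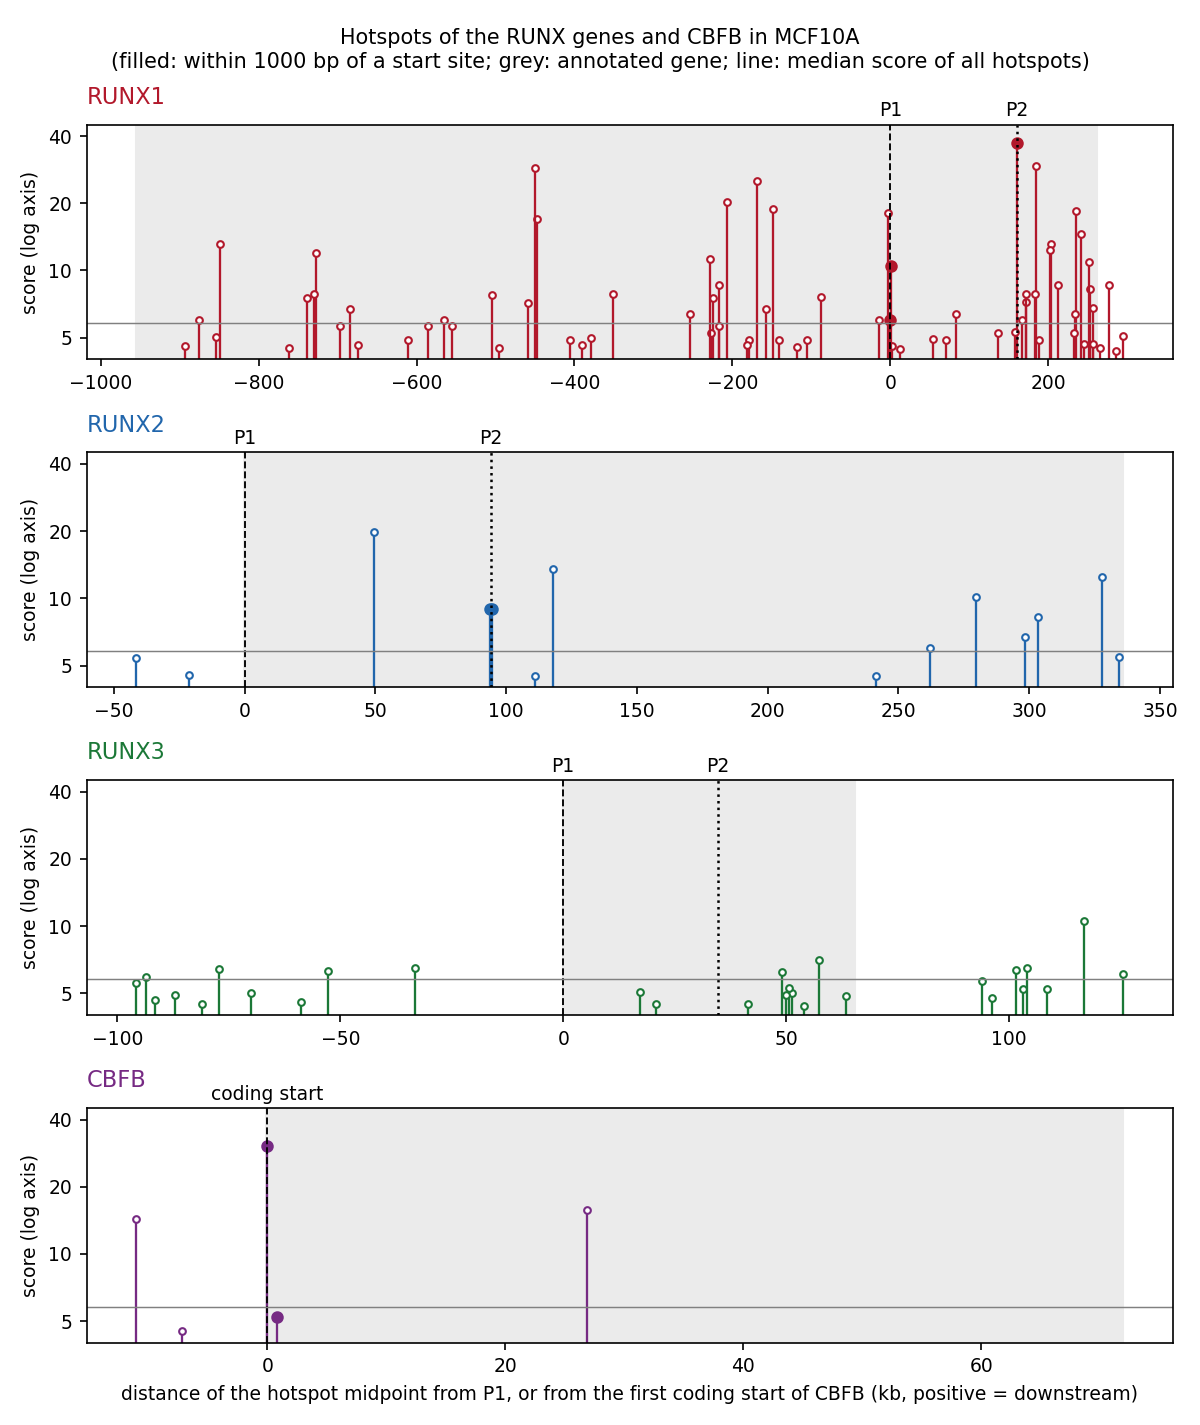
Score (vertical, log axis) of every hotspot taken for RUNX1, RUNX2, RUNX3 and CBFB by distance of its midpoint from P1, or from the first coding start of CBFB (horizontal, kb, positive downstream), with promoter hotspots filled, the annotated genes in grey and a line at the median score of 5.81. RUNX1 peaks at P2 (37.2) with further hotspots far upstream of P1, RUNX2 and CBFB have few hotspots, and those of RUNX3 lie mostly under the median.

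The body of RUNX1 (chr21:34787801-36004667, minus strand, 1217 kb) held 70 hotspots, of which 68 had their midpoint in an intron and 2 in a non-coding exon or untranslated region. This is 5.75 hotspots per 100 kb, at percentile 46.1 of the 6794 protein-coding genes of 50 kb or longer and close to the 6.09 per 100 kb of chromosome 21. They were not spread evenly. The 101 kb from P2 to the end of the gene held 18 hotspots, or 17.8 per 100 kb, with a median score of 7.87. The 161 kb from P1 to P2 held 10, or 6.22 per 100 kb, with a median of 5.27, including the P2 hotspot by its midpoint. The 955 kb upstream of the main P1 starts, which are part of the gene through long transcripts with distant starts, held 42, or 4.40 per 100 kb, with a median of 6.01. Of the starts of these distant transcripts, 1 of class P1 and 4 of non-coding or not fully coding transcripts, none had a hotspot within 1000 bp. Counted from the main P1 starts, RUNX1 held 28 hotspots, a setting added after the data had been seen.

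Within the stretch from P2 to the end, the strongest hotspot of RUNX1 was at chr21:34863927-34864720, 24.4 kb downstream of P2, with a score of 29.3 and a width of 794 bp. It overlaps a long non-coding RNA gene, ENSG00000286153, and held no RUNX, AP-1 or TEAD word. Others were at chr21:34813345-34813995 with a score of 18.4 and at chr21:34807676-34808610 with a score of 14.6. In all, 6 of the 18 hotspots of this stretch had a score of 10 or more, and 14 were above the median of the list.

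Upstream of P1, 9 of 42 hotspots of RUNX1 had a score of 10 or more. Of these, 4 lay between -149 and -228 kb from P1, where minus means upstream. The 3 with the highest scores were chr21:35217440-35218012 with a score of 25.2, chr21:35256428-35256994 with 20.3 and chr21:35197930-35198354 with 18.8. These 3 held 2, 2 and 3 AP-1 words. The centre of the first is shown because it has the highest score among them.
RUNX1 upstream hotspot, chr21:35217577-35217876, plus strand: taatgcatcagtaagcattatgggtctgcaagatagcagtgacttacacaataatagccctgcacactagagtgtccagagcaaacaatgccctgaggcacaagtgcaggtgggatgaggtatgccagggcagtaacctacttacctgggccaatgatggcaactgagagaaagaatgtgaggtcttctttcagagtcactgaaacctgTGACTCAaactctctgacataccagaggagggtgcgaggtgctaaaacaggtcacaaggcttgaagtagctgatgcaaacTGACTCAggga
Farther upstream, 2 narrow hotspots stood at -450 and -448 kb from P1, at chr21:35498972-35499148 (177 bp, score 28.7) and chr21:35497342-35497392 (51 bp, score 17.0). Of the 11 hotspots of the 4 genes with a score of 16 or more, these were the 2 narrower than 200 bp, a width found for 7.5% of all hotspots with such scores.

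**Figure D3:**
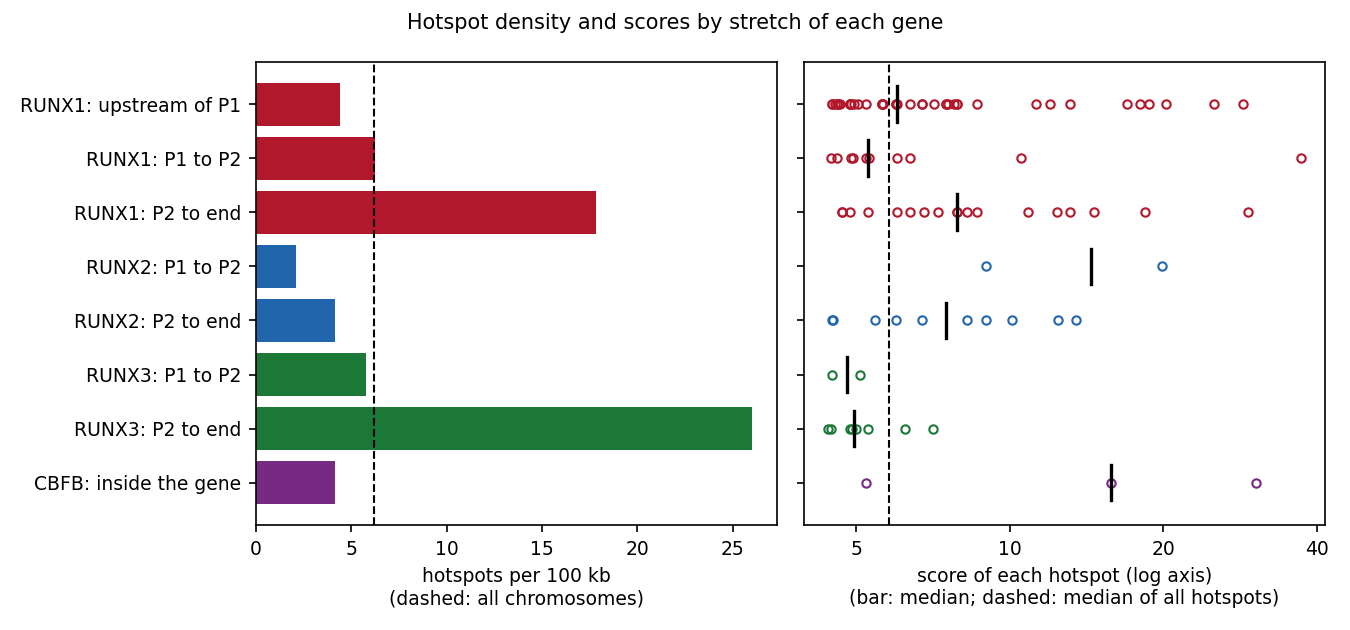
Hotspots per 100 kb (left, bars) and the score of each hotspot (right, log axis, circles, with the median as a bar) by stretch of each gene, with dashed lines at 6.19 per 100 kb for all chromosomes and at the median score of 5.81. The stretches from P2 to the end are the densest in RUNX1 (17.8 per 100 kb) and RUNX3 (26.0 per 100 kb), but the highest score in RUNX3 is 7.08.

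RUNX2 (chr6:45328157-45664349, plus strand, 336 kb) held 12 hotspots, or 3.57 per 100 kb, at percentile 23.6 of the long genes. The strongest, at chr6:45377403-45378377 with a score of 19.9, lay in a RUNX2 intron between P1 and P2 but covers the start of SUPT3H, a subunit gene of a histone acetylation complex that runs on the opposite strand across RUNX2 P1. It was assigned to SUPT3H, which had 18 assigned hotspots in all, and RUNX2 had 6. The other RUNX2 hotspots with scores of 10 or more were at chr6:45445816-45446261 (13.5), 23.6 kb downstream of P2 and with 2 TEAD words, at chr6:45655868-45656208 (12.4), with 2 AP-1 words, and at chr6:45607852-45608184 (10.1), with 1 AP-1 word.

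RUNX3 (chr1:24899511-24965121, minus strand, 65.6 kb) held 10 hotspots, or 15.2 per 100 kb, at percentile 91.7 of the long genes. Of these, 8 lay between P2 and the end, at 26.0 per 100 kb, and 2 between P1 and P2. Their scores ran from 4.40 to 7.08 with a median of 4.96, and 2 of the 10 were above the median of the list. RUNX3 had the highest density of the 4 genes inside the gene and the lowest median score there. Each score inside RUNX3 was held by at most 2 hotspots of the list, while scores in RUNX1 often repeat, such as 4.48, held by 8035. Whether scores at different loci are on the same scale was not tested. The hotspot with the highest score inside RUNX3, at chr1:24907192-24908078 (887 bp), held 3 RUNX words. The 300 bases that hold 2 of them are shown because they are a tandem repeat, in which 92.4% of the bases recur after 50 bp.
RUNX3 intronic hotspot, chr1:24907779-24908078, minus strand: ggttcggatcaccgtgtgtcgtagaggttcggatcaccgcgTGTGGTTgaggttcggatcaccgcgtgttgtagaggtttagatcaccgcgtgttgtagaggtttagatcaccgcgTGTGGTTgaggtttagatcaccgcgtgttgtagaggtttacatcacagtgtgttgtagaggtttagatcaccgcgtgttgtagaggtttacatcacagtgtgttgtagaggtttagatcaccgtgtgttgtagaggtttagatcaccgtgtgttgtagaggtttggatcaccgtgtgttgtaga
How far reads in this repeat could be placed was not tested.

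CBFB (chr16:67028984-67101058, plus strand, 72.1 kb) held 3 hotspots, or 4.16 per 100 kb, at percentile 30.5 of the long genes. Apart from the promoter pair, the other hotspot was in an intron at chr16:67055757-67056167, 26.8 kb downstream of the first coding start, with a score of 15.8 and a width of 411 bp. It is shown as the single distal hotspot inside CBFB, with 1 AP-1 word.
CBFB intronic hotspot, chr16:67055813-67056112, plus strand: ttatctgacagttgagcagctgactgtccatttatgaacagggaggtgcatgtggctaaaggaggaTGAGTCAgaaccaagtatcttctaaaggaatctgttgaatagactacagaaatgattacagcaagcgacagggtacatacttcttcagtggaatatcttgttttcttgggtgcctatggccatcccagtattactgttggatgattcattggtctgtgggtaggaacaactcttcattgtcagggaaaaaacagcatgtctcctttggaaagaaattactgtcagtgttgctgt
A further hotspot 10658 bp upstream of the nearest CBFB start, at chr16:67017837-67018326, had a score of 14.3.

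By the nearest protein-coding TSS within 100 kb, 53 hotspots were assigned to RUNX1, 28 to RUNX3, 6 to RUNX2 and 5 to CBFB, against a median of 5 over all protein-coding genes. RUNX1 stood at percentile 99.7, RUNX3 at 97.2, RUNX2 at 56.7 and CBFB at 49.9. The 53 of RUNX1 comprised 18 from P2 to the end, 10 from P1 to P2, 21 upstream of P1 and 4 beyond the end of the gene. The other 21 hotspots inside RUNX1 were over 100 kb from any of its starts and were assigned to no gene. Of the 28 of RUNX3, 10 lay inside the gene, 10 upstream and 8 downstream of it. A score of 10 or more was held by 12 of the 53 in RUNX1, 1 of the 28 in RUNX3, 1 of the 6 in RUNX2 and 3 of the 5 in CBFB. The 1 in RUNX3, at chr1:24847993-24848446 with a score of 10.5, was 80352 bp from the nearest RUNX3 start.

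The assigned counts of RUNX1 and RUNX3 rested on the set of start sites. With protein-coding transcripts only, RUNX1 had 35 and RUNX3 28. When the starts of all genes were used, RUNX1 kept 29, with 9 nearest to LINC01426, and RUNX3 kept 1, with 14 nearest to the microRNA gene MIR6731 and 7 to LINC02793. When only the most upstream start of each gene was used, RUNX1 had 6 and RUNX3 22. At the limits of the rules, a RUNX1 hotspot at 89866 bp (score 4.86) was the last inside 100 kb and one at 102690 bp (4.55) the first outside. For promoters, the RUNX1 hotspot at 642 bp (10.5) was the last inside 1000 bp, and one at 1094 bp (5.31) the first outside.

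AP-1 words were the most frequent of the 7 motifs in these hotspots. AP-1, a dimer of JUN and FOS proteins, binds TGACTCA, and 26 of 121 hotspots held this word (21.5%), against 12.6% of all hotspots. RUNX words were found in 21 (17.4%), against 13.5%, and TEAD words in 14 (11.6%), against 9.84%. SP/KLF words were in 10 (8.26%), against 10.3%, and ETS words in 2 (1.65%), against 3.75%. CTCF and GATA words were in 1 each (0.826%), against 1.46% and 2.91%. In the central 300 bp the AP-1 shares were 18.2% against 11.1% of all hotspots and the RUNX shares 16.5% against 11.9%. The 2 sets differ in their promoter part, with 7 promoter hotspots among the 121 and 24700 among all 181723. RefSeq start windows held AP-1 words in 4.95%, ETS words in 10.3% and SP/KLF words in 30.8%. Whether the promoter part accounts for the differences in shares was not tested. The 121 hotspots belong to 4 loci and share their libraries, so these shares are descriptions.

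The 4 genes differed in their words. RUNX1 hotspots held AP-1 words in 18 of 74, and RUNX words in 10. RUNX3 hotspots held AP-1 words in 3 of 28 and RUNX words in 7. RUNX2 hotspots held RUNX, AP-1 and TEAD words in 4 of 14 each, and CBFB hotspots held no RUNX word and an AP-1 word in 1 of 5. SP/KLF words were in 3 of 74 hotspots of RUNX1, 3 of 14 of RUNX2, 3 of 28 of RUNX3 and 1 of 5 of CBFB. The 1 hotspot with a CTCF word was of CBFB, and the 1 with a GATA word was of RUNX1. The P2 hotspot of RUNX1 also held 1 AP-1 word, and the hotspot at its P1 start held 3 RUNX words. Among the 25 hotspots of the 4 genes with a score of 10 or more, 12 held an AP-1 word (48.0%), against 21.3% of all hotspots with such scores, and 5 held a RUNX word (20.0%), against 22.9%. The median widths of these 25 hotspots and of all hotspots with such scores were 516 and 596 bp. Of the 25, 17 were of RUNX1, 4 of RUNX2, 1 of RUNX3 and 3 of CBFB. Most of the 12 with an AP-1 word were of RUNX1, so the share mainly describes that locus.

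**Figure D4:**
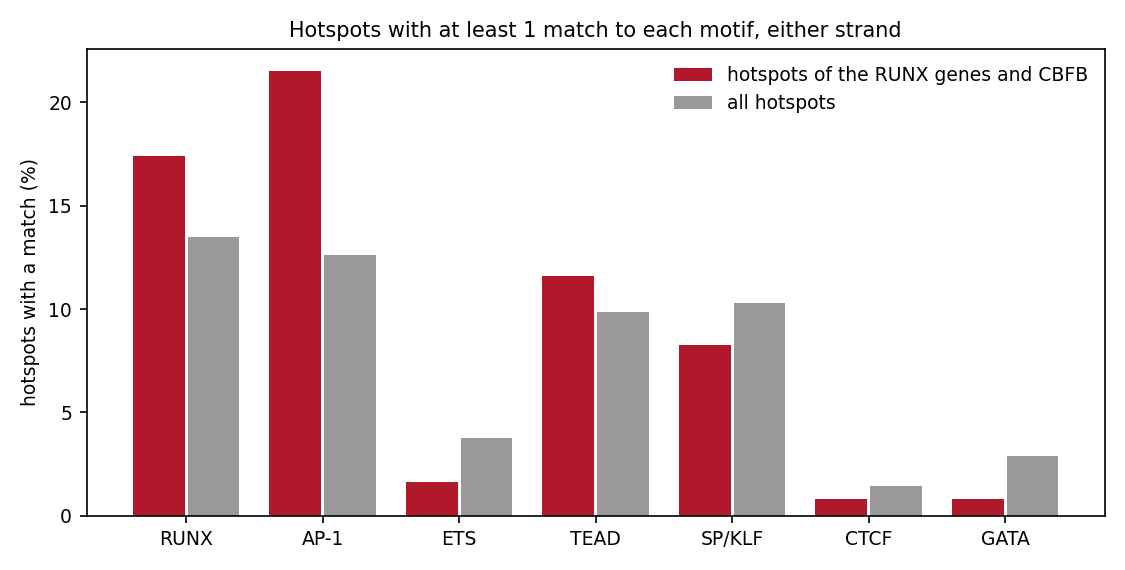
Share of hotspots with at least 1 match (vertical, %) for the 7 motifs, in the 121 hotspots of the RUNX genes and CBFB (red) and in all 181723 hotspots (grey). The AP-1 bars differ most, at 21.5% and 12.6%, and the SP/KLF, ETS, CTCF and GATA bars are lower in the 4 genes.

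Genes of proteins that act with RUNX factors or on them, and known RUNX targets, were set against all protein-coding genes. Of 54 genes in 6 lists, 46 had a promoter hotspot (85.2%, against 77.2% of all protein-coding genes). A score of 10 or more was held by 33 of the 54, against 59.1% of all protein-coding genes. Both shares lay near those of all genes. By list, the share with a promoter hotspot was 100% for cofactors and for enzymes and 88.9% for partner factors. It was 87.5% for epithelial and tumour targets, 75% for blood targets and 50% for bone targets, each to be set beside the 77.2%. Median scores below are over the genes with a promoter hotspot, for which the median of all protein-coding genes was 20.4.

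All 12 cofactor genes had one, with a median highest score of 31.6. TLE4, a Groucho-type corepressor, had the highest at 50.7, and CBFA2T3, a corepressor of the ETO family, the lowest at 4.81. All 9 genes of enzymes known to modify or bind RUNX proteins had one, with a median of 28.2, from 12.5 at STUB1, a ubiquitin ligase gene, to 40.6 at SMURF1, another ubiquitin ligase gene. Of 9 partner factors, 8 had one, with a median of 29.3. ETS1, which binds DNA together with RUNX1, had the highest at 45.6 and SPI1, a blood factor, the lowest at 4.79, and TAL1, a factor of blood stem cells, had none.

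Of 8 epithelial and tumour targets, 7 had a promoter hotspot, with a median of 20.2. BCL2L11, which encodes the pro-apoptotic protein BIM, had the highest at 37.9, ELF5, a luminal factor, the lowest at 4.75, and the protease gene MMP9 had none. Of 8 blood targets, 6 had one, with a median of 6.64, from 4.78 at CSF2, the gene of the cytokine GM-CSF, to 15.7 at CSF1R, the receptor of macrophage colony-stimulating factor. GZMB and ITGAL, genes of killer lymphocytes and of leukocyte adhesion, had none. Of 8 bone targets, 4 had one, with a median of 8.22. COL1A1, a collagen gene, had the highest at 24.1 and ALPL, an alkaline phosphatase gene, the lowest at 5.12, and IBSP, SPP1, COL10A1 and SP7 had none.

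**Figure D5:**
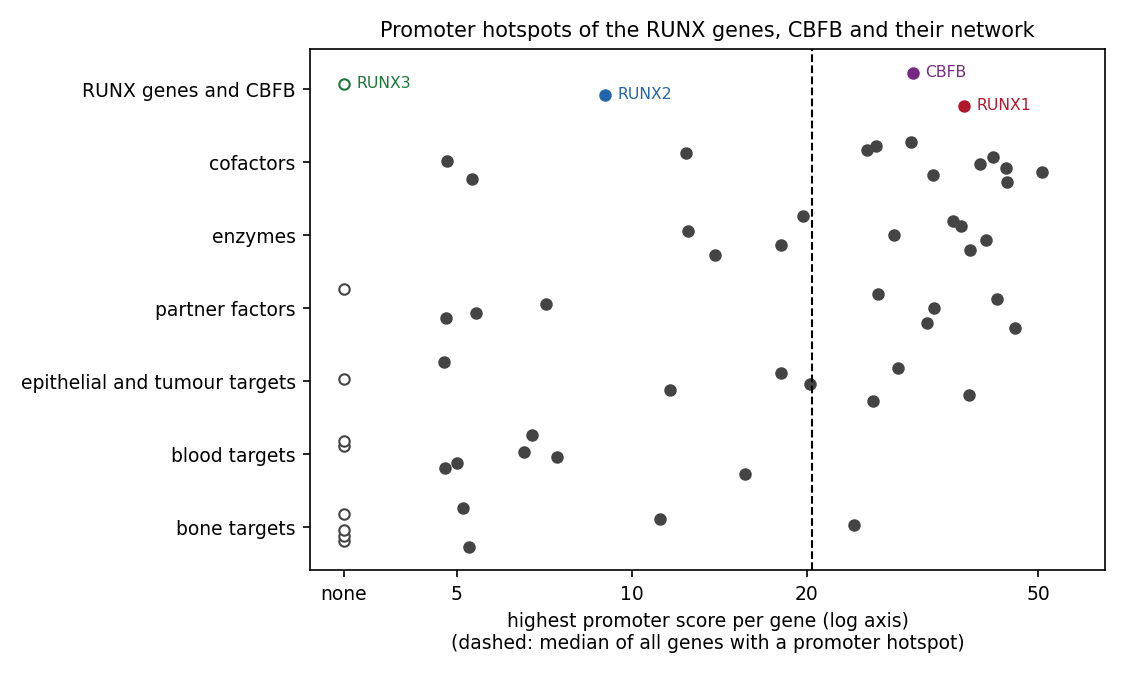
Highest promoter score per gene (horizontal, log axis) for RUNX1, RUNX2, RUNX3, CBFB and the 6 lists of genes that act with RUNX proteins or are known targets (rows), with genes without a promoter hotspot at the left as open circles. The dashed line is the median of 20.4 over all genes with a promoter hotspot. A promoter hotspot is found for 50% of the 8 bone targets, against 77.2% of all protein-coding genes. The share of the 8 blood targets, 75%, lies near that of all genes, and the other lists range from 87.5% to 100%.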

How the data were processed

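ATAC-seq of MCF10A cells gave 5 libraries. Reads were mapped by the authors with Bowtie2 (build hg38, version not given in the sources used here). They merged the 5 libraries, removed duplicates, left out satellite regions and called hotspots with Hotspot (version 4.1) at a false discovery rate of 0.01. A shift for the Tn5 cut is not given in the sources used here. The unit of the deposited values is a score, as the authors' Hotspot run wrote it. What it is relative to is not stated, and it was used only as given. Read counts are not in this list, so the depth behind each value is unknown.

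Coordinates were checked against hg38, and 0 hotspots ran past a chromosome end. Genes and start sites came from GENCODE release 44, with every transcript of 20033 protein-coding genes, which gave 146431 start sites, and 76.9% of hotspots were assigned. The P1 or P2 class came from the first codons of each protein-coding transcript. The P1 starts shared by most transcripts, within 1000 bp of each other, were taken as the main P1. Percentiles are the share of genes, start sites or hotspots with a lower value, and genes without a promoter hotspot count as lowest. CpG values used 500 bp on either side of the start of the MANE Select transcript, a reference transcript per gene. Motifs were exact words on both strands. Start windows came from RefSeq (GRCh38.p14).

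The genes named are the 4 members, neighbours that take their hotspots, and in each list the genes with the highest and lowest promoter score and those with no promoter hotspot. Some items are not reported here. The members, lists, words and alternatives were chosen with earlier results of these data known. Alternatives were other windows, overlap and distance rules, sets of start sites, hotspots above the median score and the central 300 bp. On simulated data, 200 of 200 planted promoter hotspots, 200 of 200 assignments and 22 of 22 planted words were recovered. Software was Python 3.11.15 with numpy 2.4.6, pysam 0.24.0 and matplotlib 3.10.9.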

Additional observations from a re-analysis of the deposited data

How the results depend on the processing

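The 4 genes had 7 promoter hotspots, 6 with a window of 500 bp, 6 above the median score and 11 with a window of 2000 bp, where RUNX1 had 7. The highest score at the P1 and P2 starts was 37.2 with each window and 34.1 as a sum of score times overlapped bases per base of the window, at RUNX1 P2 in each case. The 95 hotspots inside the genes became 54 above the median score and 53 when counted from the main P1 starts, a setting added after the data had been seen. The 92 assigned hotspots became 61 with a limit of 50 kb, 37 with the most upstream start of each gene, 39 with the starts of all genes and 46 above the median score. A higher score limit or a shorter distance can only lower a count. Other sets of start sites can move it either way, and CBFB had 5 assigned hotspots, 6 with protein-coding transcripts only and 7 with the most upstream start of each gene. Of 91 other alternative values, for single genes, lists and motifs, 68 were counts within 1.5 times the value reported or equal scores, and 23 were not. RUNX3 had 0 promoter hotspots in every window and rule tried.

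No leave-one-out was possible because the libraries were pooled before the calls. No paired analysis was possible because the result comes from 1 pooled list without a test. Depth is unknown, so the absence of a hotspot at the RUNX3 starts or RUNX2 P1 says that no region passed the authors' threshold there and sets no limit on accessibility.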
